A study of Bos taurus with 29 samples.

Results

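The cytosolic ribosomal protein genes encode the protein components of the ribosome that works in the cytoplasm. They were taken as the rows with a ribosomal protein symbol (RPL or RPS with a number, RPSA, RPLP0, RPLP1 or RPLP2), without the RPS6K kinases, that the deposited tables of all 5 lesion stages list. This gave 80 rows of the 10629 genes listed in every table, 46 of the large and 34 of the small subunit. They carry 79 symbols, since RPS29 has 2 rows. All 80 passed the filter on low counts and were among the 10371 genes tested. RPL22 was not chosen, because its row carries a description but no symbol. Digital dermatitis is an infectious disease of the skin of the bovine foot, and its lesions are graded by M stage. The series holds 29 libraries of 3′ messenger RNA ends, made from punch biopsies of the skin of Holstein-Friesian dairy cattle. The control group M0 and the stages M1, M2, M3 and M4 have 5 libraries each, and stage M4.1 has 4. The M0 biopsies are labelled as skin above the interdigital cleft and those of the other groups as lesion skin, so body site and disease cannot be told apart. Per the design text, 22 lesions were sampled at 6 dairy farms, while the 5 M0 biopsies and 2 from M1 came from a slaughterhouse post mortem, so disease and the place of sampling cannot be told apart either for M2 to M4.1. No label marks the 2 from M1, and none states that each replicate is its own animal. The tests therefore measure the spread between these samples alone, which may be technical.

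Each ribosome holds 1 copy of nearly every ribosomal protein, and cells coordinate the production of these proteins with that of ribosomal RNA. Their messenger RNAs are among the most abundant of a growing cell and mostly start with a terminal oligopyrimidine tract, a short sequence through which the mTOR kinase controls their translation. A few genes have a paralog, a second copy with its own promoter, whose use differs between tissues. Tissue that grows fast, such as the edge of a healing wound, is known for high ribosome production.

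The 80 genes together held a large part of each library. Their share was 10.8% ± 0.92 in M0, 9.26% ± 0.822 in M1, 9.54% ± 0.552 in M2, 9.18% ± 0.979 in M3, 8.25% ± 1.56 in M4 (SD, n = 5 each) and 9.35% ± 0.602 in M4.1 (SD, n = 4). The lesion libraries ran from 6.00% to 10.4% and the M0 libraries from 9.62% to 12.1%, so the groups overlapped. The lowest share, 6.00% (95% Wilson interval 5.98% to 6.03%), belonged to M4 replicate 1. In that library the 10 genes with the most counts took 50.3% of all counts, against 27.8% to 37.5% in the M0 libraries. In bulk samples, fewer cells of a type and less RNA per cell cannot be told apart.

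After scaling by TMM (the trimmed mean of M-values, which sets libraries to a common level over most genes), the order of the groups was another. The summed level in CPM, that is, with every library brought to 1 effective size, was 90717 ± 6388 in M0, 95208 ± 18307 in M1, 90136 ± 6519 in M2, 97523 ± 10809.8 in M3, 101455 ± 8269.6 in M4 (SD, n = 5 each) and 86127 ± 8641 in M4.1 (SD, n = 4). M1 replicates 3 and 4 stood apart in their group with 119469 and 110437 CPM, while the other M1 libraries had 81729, 82036 and 82369 CPM. Library totals alone, in place of TMM, gave a median log2 fold change of all genes of -0.28 in M1, -0.19 in M2, -0.32 in M3, -0.58 in M4 and -0.14 in M4.1. The median of the members less that of all genes then changed little, with 0.22 in M4 under either scaling and -0.04 and -0.05 in M4.1. Fold changes below are therefore changes relative to most other genes.

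**Figure D1:**
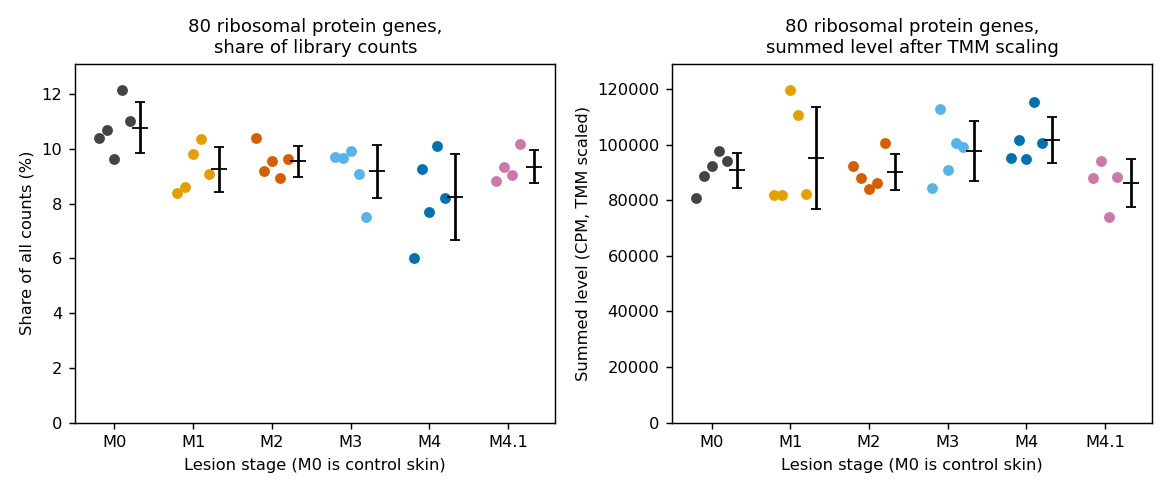
Each point is 1 library, and the bar beside each group is the mean ± SD. The left panel gives the share of all counts held by the 80 ribosomal protein genes in percent, highest on average in M0 at 10.8% and lowest in M4 at 8.25%. The right panel gives their summed level in CPM after TMM scaling, where M4 is highest on average at 101455 CPM and M4.1 lowest at 86127 CPM.

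Against M0, the ribosomal protein genes were called at lower shares than all genes tested, and their fold changes were smaller. At an adjusted p under 0.05 (edgeR quasi-likelihood test), 11 members rose and 2 fell in M1, where 43% of all genes tested were called (21.9% risen, 21.1% fallen). In M2, 8 rose and 6 fell, with 42.1% of all genes called (21.7% risen, 20.5% fallen). In M3, 15 rose and 1 fell, with 39.4% of all genes called (20.4% risen, 19% fallen). In M4, 23 rose and 1 fell, with 42.4% called (21.3% risen, 21.1% fallen). In M4.1, 7 rose and 7 fell, with 39.2% called (20.2% risen, 18.9% fallen). The called members thus made up 16.2%, 17.5%, 20%, 30% and 17.5% of the 80, below the share over all genes at every stage.

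The size of the changes was small. The median absolute log2 fold change of the members was 0.17 in M1, 0.15 in M2, 0.16 in M3, 0.22 in M4 and 0.18 in M4.1. Over all genes tested it was 0.52, 0.51, 0.48, 0.50 and 0.51 in the same order. A log2 change over 1 in either direction was reached by 1 member at each stage, RPL22L1, while 22.1% to 24.7% of all genes passed it. The signed median of the members was 0.10, 0.01, 0.14, 0.19 and -0.06, and with library totals alone it was below 0 at all 5 stages, at -0.19, -0.15, -0.19, -0.36 and -0.19. The median standard error of a member's log2 fold change was 0.13 in M1 to M4, against 0.25 to 0.26 over all genes. In M4.1 it was 0.14, against 0.27. These comparisons with all genes were not matched for level.

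**Figure D2:**
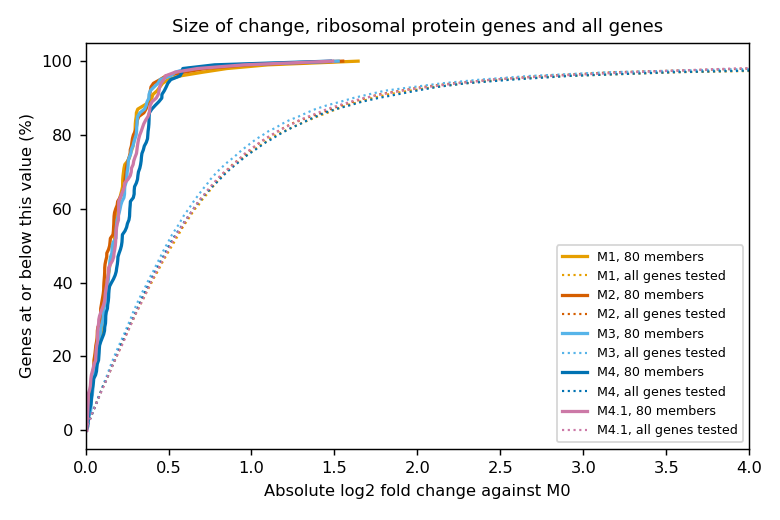
The horizontal axis is the absolute log2 fold change against M0, cut at 4, and the vertical axis the percent of genes at or below it. Solid lines are the 80 ribosomal protein genes and dotted lines all genes tested, 1 colour per stage. The solid lines rise faster, with medians of 0.15 to 0.22 against 0.48 to 0.52 for all genes.

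Several of these counts changed when 1 library was left out. In M3 every such fit gave fewer risen members, 5 to 13 in place of 15. The share of all genes called in the fits without 1 library was not counted. Whether fewer libraries lowered the calls of all genes alike was therefore not tested. M1 replicates 3 and 4 were left out together after the data were seen, because their summed member level was the highest in M1. This choice by itself lowers the members in M1, here and for single members below. It therefore shows only how far M1 rests on these libraries. Without both, 5 members rose and 14 fell in M1, with 20.6% of all genes risen and 20.1% fallen. The members' median was then -0.11 against -0.03 over all genes. The 5 that rose were RPL22L1, RPS4Y1, RPL38, RPL7L1 and RPS10. Leaving out M1 replicate 3 or 4 alone gave 7 risen and 5 fallen. Without M0 replicate 1 or 2 there were 7 risen in M1. The fallen count in M1 was 1 without M0 replicate 3, 4 or 5 or M1 replicate 1, 2 or 5. Risen members in M2 numbered 4 without M0 replicate 1 or M2 replicate 1. In M3 they numbered 5 without M0 replicate 1, 8 without M0 replicate 2 or 4 and 7 without M3 replicate 2. In M4 there were 12 risen without M0 replicate 1, and 2 fallen without M0 replicate 1 or 2. In M4.1 there were 3 risen without M4.1 replicate 4, and 4 fallen without M0 replicate 3 or M4.1 replicate 3. M0 replicate 1 has the lowest summed level of the members in its group, 80796 CPM.

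Of the 80 genes, 46 (57.5%) passed the threshold at no stage, against 38.4% of all genes tested. Of the other 34, 26 rose at 1 stage or more, 8 fell at 1 stage or more, and 0 did both. Such a split by direction was not counted over all genes tested. The 6 that rose at all 5 stages were RPL22L1, RPS4Y1, RPL38, RPS10, RPL7L1 and RPL6, which is 7.5% of the 80 beside 13.1% of all genes tested. None of the 80 fell at all 5 (0%), beside 11.5% of all genes. RPL6 and RPL7L1 lost calls at some stages when 1 library was left out. All 5 comparisons share the same M0 libraries, so agreement between stages is not independent.

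RPL22L1 (ENSBTAG00000007394), the paralog of the large subunit gene RPL22, changed most. In M0 it had 98.4, 133, 84.3, 100.4 and 126 CPM. In M1 it had 330.0, 305, 378, 298 and 382 CPM, and in M2 it had 345, 327, 314, 289 and 312 CPM. Every one of these lesion libraries lay above every M0 library. In M3 it had 301, 337, 317, 307 and 296 CPM, in M4 it had 302, 335, 286, 307 and 276 CPM and in M4.1 it had 308, 320.0, 267 and 323 CPM. The lowest of the 24 lesion libraries, at 267 CPM, lay well above the highest M0 library, at 133 CPM. The log2 fold changes were 1.64 ± 0.11 in M1, 1.55 ± 0.11 in M2, 1.52 ± 0.11 in M3, 1.47 ± 0.11 in M4 and 1.49 ± 0.12 in M4.1 (SE, edgeR adjusted p from 1.7e-11 to 1.7e-10). Between stages RPL22L1 was not called, with log2 differences from -0.09 in M2 against M1 to 0.01 in M4.1 against M4.

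Mice that lack Rpl22 are known to raise Rpl22l1, and the encoded proteins can take the same place in the ribosome. In these skin samples RPL22 was not called at any stage, with log2 fold changes of 0.07, -0.11, 0.04, -0.05 and -0.13 from M1 to M4.1. The ratio of RPL22L1 to RPL22 counts does not depend on how libraries are scaled. It averaged 64% ± 11 in M1, 66.8% ± 5.9 in M2, 59.6% ± 6.97 in M3, 60.9% ± 6.82 in M4 and 64.7% ± 2.5 in M4.1, against 21.2% ± 4.32 in M0 (SD, n = 5 each, 4 in M4.1). No lesion library had a ratio under 50.6%, and no M0 library one over 25%. Stages M1 to M4 differed from M0 with an adjusted p of 0.0198 each and M4.1 with 0.0298, by a two-sided exact permutation test with adjustment over 30 ratios. The smallest raw p that such a test allows is 0.00794 for 5 against 5 and 0.0159 for 4 against 5 libraries. Reads that fit both of a pair of paralogs cannot be assigned from the counts, so the ratios of paralogs carry that uncertainty.

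**Figure D3:**
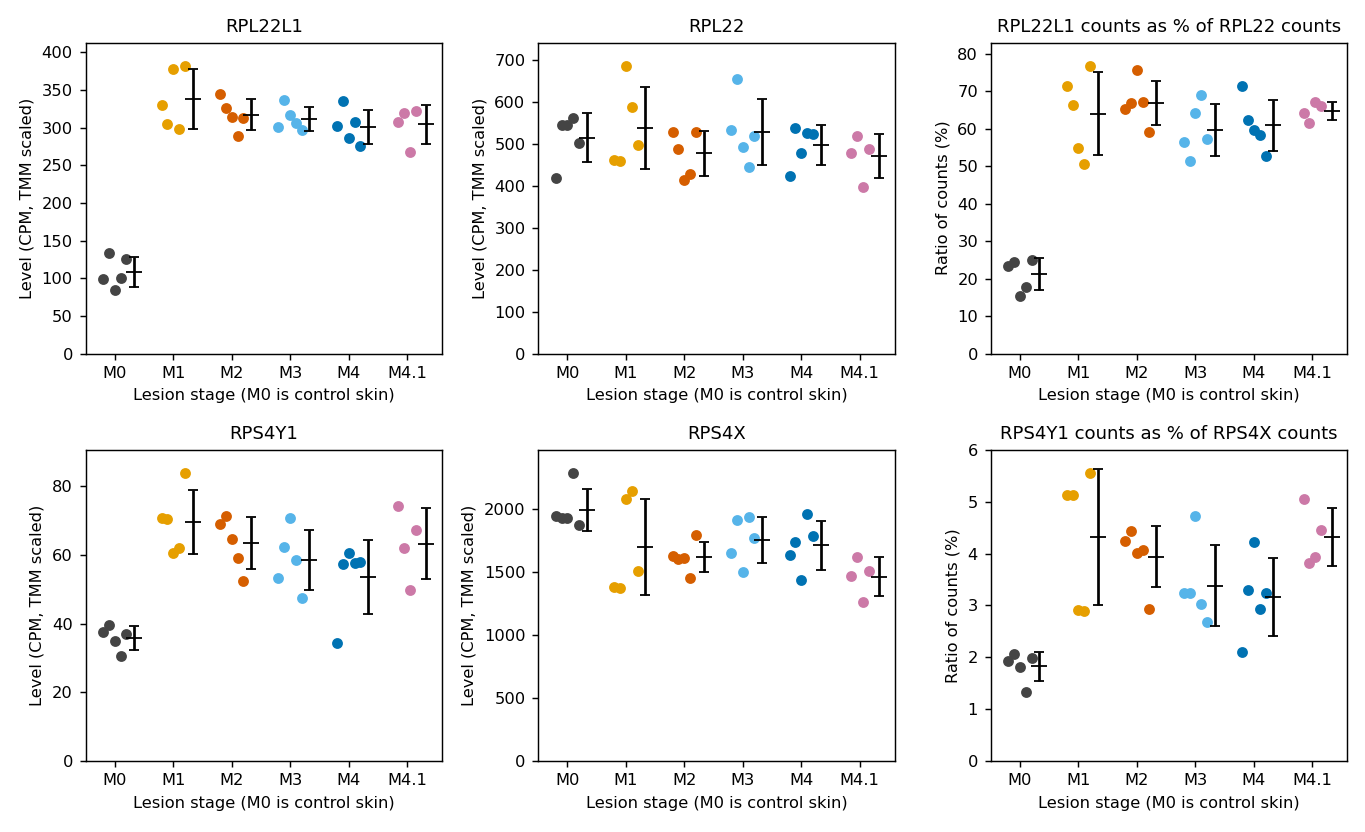
Points are libraries and bars are the mean ± SD of a group. The upper row gives RPL22L1 and RPL22 in CPM and their ratio of counts in percent, and the lower row gives RPS4Y1, RPS4X and their ratio. The ratio of RPL22L1 to RPL22 lies between 50.6% and 76.8% in all lesion libraries and between 15.5% and 25% in M0.

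RPS4Y1 (ENSBTAG00000025617) is named after a human gene of the Y chromosome, whereas the RefSeq table places the cattle gene on an autosome. It is a paralog of RPS4X, a small subunit gene. In M0 it had 37.5, 39.7, 35.1, 30.4 and 37 CPM, in M1 70.8, 70.6, 60.6, 62.1 and 84 CPM and in M4 34.4, 57.3, 60.7, 57.8 and 58 CPM. M4 replicate 1 lay inside the M0 range, while the 23 other lesion libraries, from 47.5 to 84.0 CPM, lay above it. The log2 fold changes were 0.95 ± 0.14, 0.82 ± 0.14, 0.71 ± 0.14, 0.58 ± 0.14 and 0.82 ± 0.15 from M1 to M4.1 (SE, edgeR adjusted p from 5.3e-06 to 0.0018). They kept their sign with library totals alone but were not called in M3 (0.40) and M4 (0.05). RPS4X fell by 0.44 on the log2 scale in M4.1 (adjusted p = 0.0099), and its other fold changes, from -0.30 to -0.18, were not called. The ratio of RPS4Y1 to RPS4X counts averaged 4.33% ± 1.31, 3.94% ± 0.591, 3.38% ± 0.785, 3.16% ± 0.762 and 4.32% ± 0.567 from M1 to M4.1, against 1.82% ± 0.288 in M0 (SD). Its adjusted p was 0.0198 in M1 to M4 and 0.0298 in M4.1 (two-sided exact permutation test), and no lesion library reached down into the M0 range, which ended at 2.06%.

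RPL38 (ENSBTAG00000030164) encodes a small protein of the large subunit that mice need for the translation of certain Hox messenger RNAs in the embryo. It had 1324, 1614, 2012, 1712 and 1352 CPM in M1 and 1902, 1416, 1312, 1273 and 1436 CPM in M2, against 878, 884, 945, 915 and 1057 CPM in M0. All libraries of M1, M2, M3 and M4 lay above the M0 range, whereas M4.1 replicate 3, at 998 CPM, lay inside it. The log2 fold changes were 0.78 ± 0.14, 0.65 ± 0.14, 0.55 ± 0.14, 0.59 ± 0.14 and 0.47 ± 0.15 from M1 to M4.1 (SE, edgeR adjusted p from 6.4e-05 to 0.013). RPL38 was called in M1 and M2 with library totals alone, and its values in M3 (0.24), M4 (0.04) and M4.1 (0.34) were not.

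RPS10 (ENSBTAG00000015598), a small subunit gene mutated in some patients with Diamond-Blackfan anaemia, had 1439.7, 1553, 1453, 1780.0 and 1409 CPM in M4, against 934, 1025, 935, 1038 and 1168 CPM in M0. Its log2 fold changes were 0.45 ± 0.11, 0.39 ± 0.11, 0.37 ± 0.11, 0.58 ± 0.11 and 0.37 ± 0.12 from M1 to M4.1 (SE, edgeR adjusted p from 0.00015 to 0.014). RPL6, a large subunit gene, had 1384, 1527, 1351, 1679.9 and 1606 CPM in M4, against 1002, 1081, 1102, 1060.2 and 1344 CPM in M0. Every M4 library lay above every M0 library for both genes, and M0 replicate 5 was the highest of M0 for both. The fold changes of RPL6 were 0.40, 0.31, 0.31, 0.43 and 0.29, with adjusted p from 0.0022 to 0.047, and without M1 replicates 3 and 4 its value in M1 was 0.24 (adjusted p = 0.094). Leaving out 1 library ended its call in 16 of 49 fits. Those libraries were M0 replicates 1, 2 and 4 and M2 replicate 1 in M2, M0 replicates 1, 2 and 4 and M3 replicates 2 and 3 in M3, and M0 replicates 1 to 4 and M4.1 replicates 1, 2 and 4 in M4.1. RPL7L1, a paralog of RPL7 at a low level, had 49.6, 35.6, 48.5, 56.7 and 57.2 CPM in M1, against 29.1, 34.4, 39, 33.3 and 29.3 CPM in M0. Its fold changes were 0.59, 0.37, 0.33, 0.38 and 0.42, with adjusted p from 0.00036 to 0.036, and leaving out 1 library ended the call in 14 of 49 fits. Those were M0 replicates 1 and 5 and M2 replicates 1 and 3 in M2, M0 replicates 1, 2, 4 and 5 and M3 replicates 1 to 3 in M3, M0 replicates 1 and 5 in M4, and M4.1 replicate 4 in M4.1. Without M4.1 replicate 4 the calls of RPL38 (0.36, adjusted p = 0.080) and RPS10 (0.32, adjusted p = 0.059) in M4.1 were also lost. Without M4.1 replicate 2 the value of RPS10 in M4.1 was 0.31 (adjusted p = 0.063). With library totals alone RPS10, RPL6 and RPL7L1 were called at 0 of 5 stages, and the sign turned for RPL6 in M3 (-0.010) and M4 (-0.11) and for RPL7L1 in M4 (-0.16).

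Other members rose at fewer stages. RPL36 rose in M1, M2, M3 and M4 (log2 fold changes 0.29, 0.31, 0.30 and 0.40) and was not called in M4.1 (0.18). RPS12, the member with the highest CPM, and RPS21 each rose in M1, M3 and M4. RPS12 had 4775, 5554, 4629.7, 7045 and 5075 CPM in M4, against 3472, 3804, 3513, 4221 and 4004 CPM in M0, and the groups did not overlap. Its log2 fold changes were 0.38 ± 0.15 in M1, 0.43 ± 0.15 in M3 and 0.51 ± 0.15 in M4 (SE, edgeR adjusted p = 0.037, 0.021 and 0.0067). Without M1 replicates 3 and 4 its value in M1 was 0.12 and not called, and with library totals alone its value in M4 was -0.033. RPL11, which together with RPL5 and a ribosomal RNA binds the p53 regulator MDM2, rose in M1 (0.31), M3 (0.38) and M4 (0.38). RPL24 rose in M3 (0.39) and M4 (0.46), and RPS15A in M3 (0.31) and M4 (0.33).

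M4 had the most risen members, 23 of 80 (28.8%), beside 21.3% of all genes tested. In it 10 members rose that passed at no other stage. How many of all genes tested rose in M4 alone was not counted, so this number has no background beside it. Among the 10 were RPL32 (0.48), RPL39 (0.46), RPLP2 (0.38), RPL28 (0.37), RPS15 (0.37), RPL13A (0.36), RPS18 (0.35), RPL8 (0.32) and RPS3 (0.31). RPL39 lines the tunnel through which the new protein leaves the ribosome, and RPS3 sits where messenger RNA enters it. RPL32 had 1156, 1502, 1469.9, 1634 and 1435 CPM in M4, against 917, 1019, 1051, 1133 and 1036 CPM in M0. None of the 10 was called in M4 against M3 or in M4.1 against M4. When libraries were scaled by their totals alone, 1 member rose and 44 fell in M4, while 7.26% of all genes rose and 45.6% fell. Of the 23 risen members, 19 then had a log2 fold change below 0, and the 23 ran from -0.24 to 0.92.

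**Figure D4:**
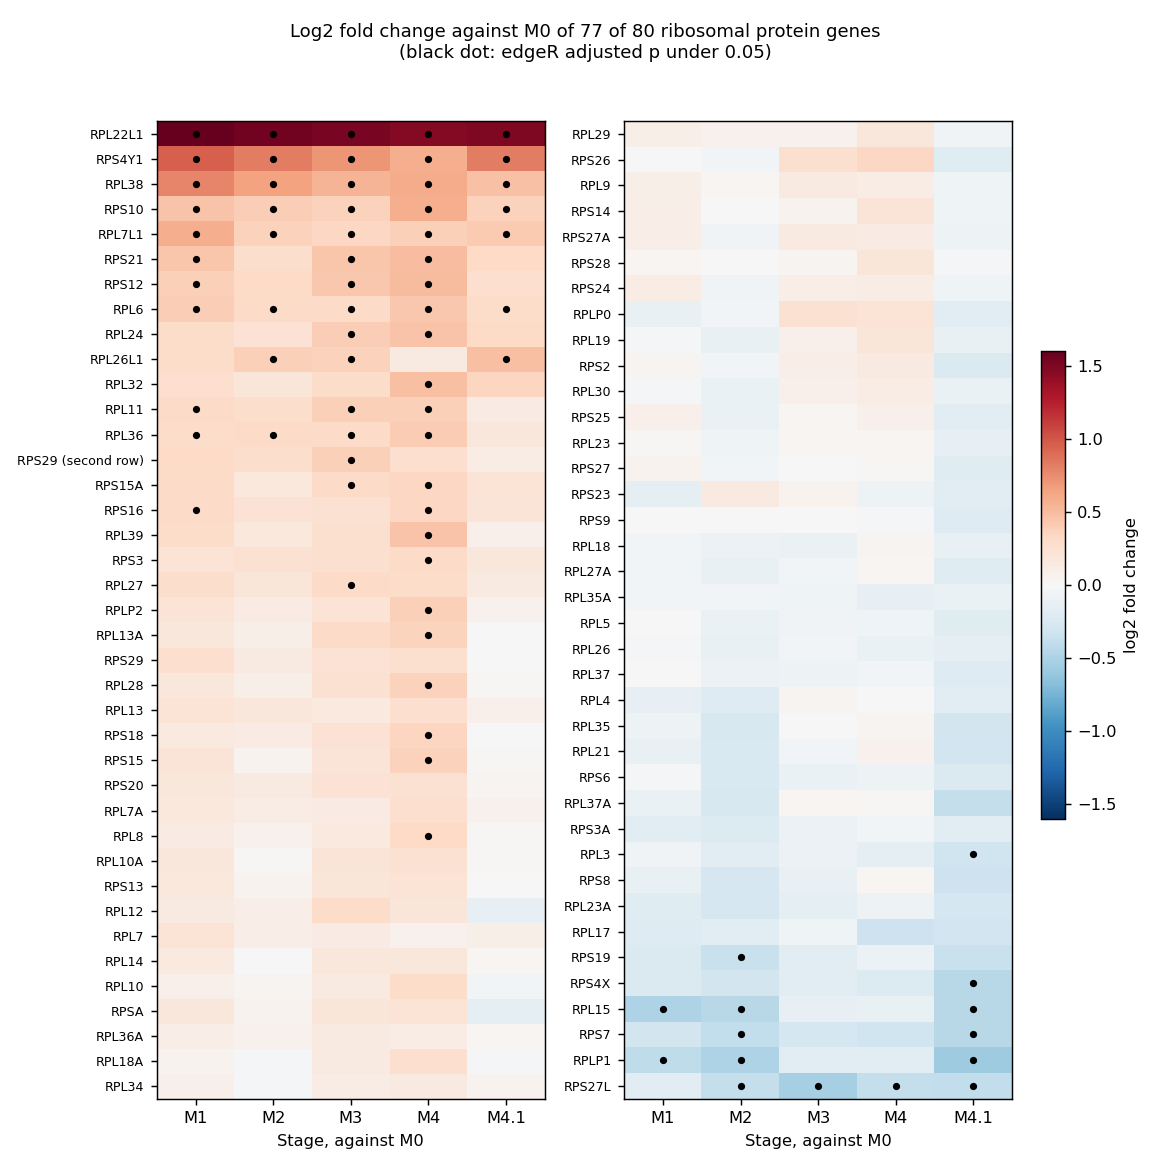
Rows are 77 of the 80 ribosomal protein genes, ordered by their mean log2 fold change over the 5 stages, and columns are the stages, each against M0. Colour is the log2 fold change after TMM scaling and a black dot an edgeR adjusted p under 0.05. RPL22L1 stands at the top with 1.47 to 1.64, and RPS27L, with values from -0.53 to -0.17, at the foot. With library totals alone the members' median in M4 was -0.36 in place of 0.19.

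The members that fell were fewer, and those named here were also below 0 with library totals alone. RPLP1 (ENSBTAG00000018320) encodes an acidic protein of the stalk, the part of the large subunit that recruits elongation factors. It had 1791, 1907, 1577 and 1795 CPM in M4.1, against 2147, 2356, 2885, 2997 and 2757 CPM in M0, without overlap. In M2 it had 1854, 1844, 1718, 1690.3 and 2236 CPM and in M1 1668, 1535, 2736, 2415 and 1553 CPM, and in M1 the values of replicates 3 and 4 lay inside the M0 range. The log2 fold changes were -0.41 ± 0.16 in M1, -0.49 ± 0.16 in M2 and -0.57 ± 0.17 in M4.1 (SE, edgeR adjusted p = 0.04, 0.015 and 0.0092). In M3 (-0.19) and M4 (-0.16) it was not called. Without M1 replicates 3 and 4, left out for their high member level, its value in M1 was -0.73. That choice by itself enlarges the fall, so no p is given. Leaving out M0 replicate 3, 4 or 5 or M1 replicate 1, 2 or 5 ended the call in M1.

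The other stalk genes had other values. RPLP2, the partner of RPLP1 in the stalk, rose in M4 (0.38 ± 0.12, SE, edgeR adjusted p = 0.014) and was not called at the other stages, with values from 0.07 to 0.22. RPLP0, on which both are mounted, was called at no stage, with values of -0.11, -0.05, 0.25, 0.22 and -0.18 from M1 to M4.1 and standard errors of 0.17 or 0.18. RPLP0 had 2092, 3017, 1951, 3521 and 2912 CPM in M3, against 1870.1, 2068, 2235, 2683 and 2493 CPM in M0, and the groups overlapped.

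RPL15 (ENSBTAG00000033080), a large subunit gene, fell at the same stages as RPLP1. It had 402, 407, 485, 588 and 517 CPM in M1 and 594, 410.4, 507, 501 and 465 CPM in M2, against 573, 672, 733, 711 and 690.2 CPM in M0. In M4.1 it had 636, 299, 486 and 571 CPM, where replicate 2 was lowest and replicate 1 lay inside the M0 range. The log2 fold changes were -0.49 ± 0.15, -0.45 ± 0.15 and -0.44 ± 0.16 (SE, edgeR adjusted p = 0.01, 0.019 and 0.032), and in M3 and M4 they were -0.13 and -0.12, not called. Without M4.1 replicate 2 the value in M4.1 was -0.26 (adjusted p = 0.18). The calls were also lost without M0 replicate 3 or M4.1 replicate 3 in M4.1 and without M2 replicate 2 in M2.

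RPS7, a small subunit gene whose protein also binds MDM2, fell in M2 (-0.40, adjusted p = 0.017) and M4.1 (-0.45, adjusted p = 0.013). It had 1775, 1989.9, 1611 and 2115 CPM in M4.1, against 2347, 2426, 2572, 2949 and 2488 CPM in M0, and the groups did not overlap. RPS19, the gene most often mutated in Diamond-Blackfan anaemia, fell in M2 (-0.35, adjusted p = 0.038), and RPL3, which lies at the catalytic centre of the large subunit, fell in M4.1 (-0.31, adjusted p = 0.031).

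RPS27L (ENSBTAG00000012898), a paralog of RPS27 that p53 induces in human cells, fell at 4 stages. It had 87.7, 114, 112, 71.8 and 95.1 CPM in M3, against 121, 142, 153, 151 and 124 CPM in M0. All libraries of M2, M3, M4 and M4.1 lay below the M0 range, which started at 121 CPM, and those of M1 overlapped it. The log2 fold changes were -0.39 ± 0.11 in M2, -0.53 ± 0.11 in M3, -0.38 ± 0.11 in M4 and -0.39 ± 0.12 in M4.1 (SE, edgeR adjusted p from 0.00051 to 0.011), and the -0.17 of M1 was not called. RPS27 itself was called at no stage. The ratio of RPS27L to RPS27 counts was 5.86% ± 1.29 in M3, against 8.46% ± 1.24 in M0 (SD, n = 5 each, adjusted p = 0.0298, two-sided exact permutation test). At the other stages the ratio averaged 6.49% to 7.38% with adjusted p from 0.0541 to 0.254.

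The remaining paralogs lay at low levels. RPL26L1 rose in M2 (0.38 ± 0.14), M3 (0.37 ± 0.14) and M4.1 (0.48 ± 0.14, SE, edgeR adjusted p = 0.024, 0.034 and 0.0086), while RPL26 was called at no stage. RPL26L1 had 67.6, 62, 47.9 and 63 CPM in M4.1, against 36.8, 44.3, 41.5, 45.5 and 46.7 CPM in M0, and the groups did not overlap. Its ratio to RPL26 was 2.86% ± 0.276 in M4.1, against 1.87% ± 0.22 in M0 (SD, adjusted p = 0.0298), with 0.0198 in M2, 0.042 in M3, 0.115 in M1 and 0.119 in M4 (two-sided exact permutation test). The ratio of RPL7L1 to RPL7 was 3.74% ± 0.591 in M1, against 2.91% ± 0.353 in M0 (SD), with an adjusted p of 0.0476 in M1, M2 and M4, 0.0762 in M3 and 0.0595 in M4.1 (exact permutation). RPL36AL, a paralog of RPL36A outside the 80, rose in M1 to M4 (0.55, 0.35, 0.56 and 0.39) and was not called in M4.1 (0.26). Its ratio to RPL36A was 15.5% ± 0.666 in M1, against 11.4% ± 0.801 in M0 (SD), with an adjusted p of 0.0198 in M1, M2 and M3, 0.0541 in M4 and 0.0916 in M4.1 (exact permutation). RPL36A was called at no stage. Of the 3 members with the lowest CPM, RPL7L1, RPL26L1 and RPS4Y1, all are such paralogs.

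Large and small subunit members had close median changes. The small subunit members had 0.917 to 0.940 counts for each large subunit count on average in every group. The median log2 fold changes of the 46 large and 34 small subunit members were 0.10 and 0.10 in M1, 0.02 and 0.01 in M2, 0.14 and 0.13 in M3, 0.18 and 0.21 in M4, and -0.04 and -0.08 in M4.1. In M4, 13 large and 10 small subunit members rose. In M2 and M4.1, 4 small subunit members fell at each, beside 2 and 3 of the large subunit. No test of the subunits against each other was made.

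Between lesion stages the members moved little and few passed the test. In M2 against M1, M3 against M2 and M4 against M3, 0 members and 0% of all genes were called (edgeR), and limma-voom and DESeq2 also called 0 members. At an unadjusted p under 0.05 there were 0, 1 and 1 members in these comparisons, beside 416, 921 and 715 of all genes. In M4 against M2, 0 members were called by edgeR, which called 3.11% of all genes (1.79% risen, 1.32% fallen). In the same comparison limma-voom called 1 member and DESeq2 3, and their shares over all genes were not counted. There 15 members (18.8%) had an unadjusted p under 0.05 and were higher in M4, and 0 were lower, beside 12.4% of all genes higher and 11.1% lower, and the members' median was 0.16 against -0.03 over all genes. Members moved together within groups (median Pearson r of 0.84, given below), so these 15 are not separate observations.

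In M4.1 against M4, 1 member fell, while 4.3% of all genes were called (2.25% risen, 2.05% fallen). The count was 0 without M4 replicate 1, 3 or 5 and without M4.1 replicate 1, 3 or 4, and 2 without M4.1 replicate 2. Most other members leaned the same way without passing. The median over the 80 was -0.21, against 0.02 over all genes, and 76 members lay below the all-gene median. At an unadjusted p under 0.05, 22 members (27.5%) were lower and 1 (1.25%) was higher in M4.1, beside 12.3% of all genes lower and 11.3% higher. Since members moved together within groups, these counts of members are not separate observations either. RPS26 (-0.53), RPLP1 (-0.41) and RPLP0 (-0.41) lay near the lower end and RPL26L1 (0.34) and RPS4Y1 (0.23) at the upper end, and none of these 5 was called. DESeq2 called 6 members fallen and limma-voom 1, and the share of all genes called by each was not counted. With library totals alone the members' median was 0.21, against 0.45 over all genes, with 3 members (3.75%) risen and 0 fallen, beside 20.8% of all genes risen and 1.26% fallen. Thus the sign of the members' own change depends on the scaling while their place below most genes does not. The TMM factors averaged 1.09 ± 0.11 in M4.1, against 0.81 ± 0.11 in M4 (SD, n = 4 and 5).

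**Figure D5:**
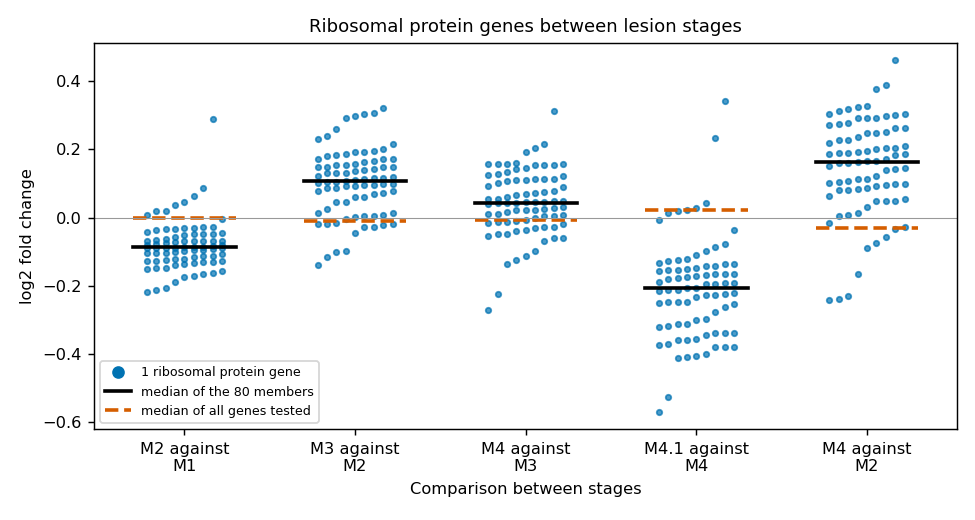
Each point is 1 of the 80 ribosomal protein genes, the vertical axis is its log2 fold change between the stages named below, the black line is the members' median and the dashed line the median of all genes tested. Members lie mostly above the dashed line in M3 against M2 and M4 against M2 (medians 0.11 and 0.16) and mostly below it in M4.1 against M4 (-0.21). With library totals alone the medians in M4 against M2 and M4.1 against M4 were -0.21 and 0.21, while their order relative to all genes was kept.

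Within groups the members varied less than other genes and moved together. The median within-group SD of log2 CPM was 0.19 over the members and 0.40 over all genes tested. Genes were not matched for level, and the part of the members' high counts in this difference was not tested. RPS16 varied least (0.14) and RPL12 most (0.42), with 319 to 933 CPM in M1 alone. A member's deviation from its group mean correlated with that of the summed other members with a median Pearson r of 0.84 over 29 libraries, highest for RPL13A (0.97). For 69 of 80 members r was above 0.5. The same r was not computed over all genes tested, so the median and this count have no background beside them. The lowest values belonged to RPS4Y1 (-0.11), RPL7L1 (0.13), RPL22L1 (0.22), RPL26L1 (0.23), RPL15 (0.24) and RPS27L (0.29), of which all but RPL15 are paralogs named above. RPS4Y1, RPL7L1 and RPL26L1 are also the members with the lowest CPM. The part of low counts in these low values was not tested. These values describe libraries that share 1 scaling and its error, and no p is given.

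Outside the 80, the gene most like their summed level over the 29 libraries was listed as NPAS2 (Pearson r = 0.90, mean 1670.3 CPM). NPAS2 is known as a transcription factor of the circadian clock, and in the RefSeq table the next named coding gene beside it is RPL31. RPL31 is not analysed here, and whether 3′ reads of one were counted to the other was not tested. FAU, which encodes a ribosomal protein fused to a ubiquitin-like protein, followed with 0.87. A row without symbol described as L11-like (ENSBTAG00000052953) had 0.82, ZC3H10 had 0.79 and a further row without symbol (ENSBTAG00000053048) 0.78. All share the libraries' scaling, and no p is given. NPAS2 and FAU were called at no stage, with log2 fold changes of 0.00, -0.05, 0.05, 0.18 and -0.19 for NPAS2 from M1 to M4.1.

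Other parts of the translation machinery were counted in the same fit. From M1 to M4.1, 21.9%, 21.7%, 20.4%, 21.3% and 20.2% of all genes tested rose and 21.1%, 20.5%, 19%, 21.1% and 18.9% fell, which is the background to the counts of each list. Of the ribosome components outside the 80, FAU and RACK1 (a small subunit scaffold) were called at no stage. Of 11 elongation and related genes, 6, 5, 7, 7 and 5 rose from M1 to M4.1 and 1 fell at each stage. The 1 was EEF1A1, which delivers aminoacyl-tRNA to the ribosome, with log2 fold changes of -0.38, -0.55, -0.46, -0.43 and -0.62 and 2414 ± 227 CPM in M4.1, against 3708 ± 207 CPM in M0 (SD, n = 4 and 5). EIF5A, which helps the ribosome past difficult stretches, rose at all stages (1.14, 1.19, 1.12, 1.28 and 0.96), as did EEF1E1 (0.85, 1.03, 0.74, 0.89 and 0.67), a scaffold of tRNA synthetases. EEF2, which moves the ribosome along, was not called (-0.21 to -0.02).

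Of 49 genes with an EIF symbol, most of them named for initiation factors, 16, 15, 17, 20 and 17 rose from M1 to M4.1. In the same order 4, 7, 4, 6 and 4 fell. The list was taken by symbol alone, so it includes EIF5A and EIF6, which other lists here also count. EIF4G2, which starts translation of selected messenger RNAs, had 1479 ± 100.3 CPM in M2, against 714 ± 79.4 CPM in M0 (SD, n = 5 each), with log2 fold changes of 0.89 to 1.05 over the stages. Of 76 mitochondrial ribosomal protein genes, 35, 26, 22, 21 and 27 rose and 1, 3, 2, 4 and 1 fell. MRPL55 (1.55, 1.42, 1.72, 1.42 and 1.48) and MRPS17 (1.17, 1.06, 1.11, 1.17 and 1.12) rose at all stages. In M1 the risen made up 35 of 76 mitochondrial and 11 of 80 cytosolic ribosomal protein genes, and in M4 21 of 76 and 23 of 80. No test of one list against the other was made.

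Of 48 ribosome assembly genes, 28, 24, 17, 11 and 22 rose and 3, 3, 2, 3 and 1 fell from M1 to M4.1, with medians of 0.64, 0.50, 0.33, 0.28 and 0.49. EIF6, which keeps the large subunit from joining the small one too early, had 322 ± 27.2 CPM in M4, against 90.5 ± 10.7 CPM in M0 (SD, n = 5 each), and log2 fold changes of 1.49 to 1.83 over the stages. NOP10, a part of the particles that modify ribosomal RNA, rose at all stages (0.69 to 1.11). Of 11 RNA polymerase I genes, 1, 1, 1, 1 and 2 rose and 1, 1, 1, 2 and 1 fell. POLR1D, a subunit shared with RNA polymerase III, rose (1.36 to 1.58) and UBTF, which activates the ribosomal RNA genes, fell (-0.81, -0.80, -0.77, -0.79 and -0.85) at all stages. Of 18 growth regulators, 3, 4, 2, 4 and 3 rose and 3, 3, 3, 2 and 3 fell. MYCN had 1.26 ± 0.986 CPM in M4, against 25.2 ± 5.02 CPM in M0 (SD, n = 5 each), and fell at all stages, while RPS6KA3, a kinase downstream of ERK, rose at all stages (0.73, 0.66, 0.64, 1.05 and 0.75). MYC, a known activator of ribosome genes, was not called at any stage, at 8.89 ± 1.76 CPM in M0.

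Markers of other cells moved with the stages. Of 5 hair keratin genes 4 were listed in all tables and all 4 fell at every stage. Their summed level was 0 to 328.6 CPM over the lesion libraries, against 1663 to 2538 CPM in M0. All 6 gland genes listed fell at every stage, with 0.257 to 10.3 CPM in the lesion libraries, against 316 to 1813 CPM in M0. Of 6 neutrophil markers 4 were listed (FCGR3A, S100A8, S100A9 and S100A12), without CXCR2 and CSF3R, and 3 or 4 rose at each stage. Which cells of the biopsies held these 4 transcripts was not tested. Their sum was 16368 to 52556 CPM in M1, 31269 to 57888 CPM in M4 and 22146 to 28986 CPM in M4.1, against 795 to 4002 CPM in M0. All 8 cell cycle genes rose in M1, M2 and M4.1 and 6 in M3 and M4, with 212 to 416 CPM in M1, against 103 to 177 CPM in M0. The 8 keratinocyte markers, which mark the labelled tissue, were high in all libraries, with 79024 to 269102 CPM in M4, 30577 to 65286 CPM in M4.1, against 31587 to 48589 CPM in M0, and 3 or 4 of them rose and 1 fell at each stage. The part of these cell types in the changes of the ribosomal protein genes was not tested.

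Of the remaining marker lists, 1 to 4 of 6 fibroblast genes rose and 0 to 2 fell at a stage, and 0 to 2 of 4 macrophage genes rose. Of 4 endothelial genes 0 or 1 rose and 1 or 2 fell, and 2 to 4 of 4 smooth muscle genes fell. For T cells 2 genes were tested and 0 called, with sums of 1.16 to 15.5 CPM in any library, and for B and plasma cells 1 gene was tested, which fell in M4. In M4.1 against M4, the B and plasma cell gene rose (2.55) and 3 of 4 hair genes rose (median of the 4, 7.35). The hair sum was 0 to 6.12 CPM in M4 and 0.636 to 328.6 CPM in M4.1. The B and plasma cell gene had 7.22 to 45.5 CPM in M4 and 24.5 to 454 CPM in M4.1. Both ranges overlapped, and the hair values in M4 lay near 0. Of the others, 2 of 4 endothelial genes rose and 2 of 8 keratinocyte genes fell, while the remaining marker lists had 0 called. The part of these cell types in the members' median of -0.21 in that comparison was not tested. A row described as a short ribosomal RNA held 0.49% of the counts in M1 replicate 4 and 0.530% in M1 replicate 5, and 0.0170% to 0.187% in the 22 other lesion libraries, against 0.217% to 1.03% in the M0 libraries. M1 replicate 4 is also one of the M1 libraries that stood apart in the members' summed level. This row's part in the members' shares was not tested.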

How the data were processed

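Skin biopsies were profiled with QuantSeq 3′ libraries, which read the end of each messenger RNA, per the labels' protocols. Per the submitters' processing notes, reads were handled with cutadapt 2.8, FastQC 0.11.7, STAR, RSEM 1.3.1 and edgeR on build ARS-UCD1.2. The authors deposited whole-number counts per gene and library in 5 tables, each of 1 stage and the same M0 libraries, and it is not stated whether estimated values were rounded. They also deposited a normalized signal per library and group, which is CPM with TMM factors (recomputed here to a relative difference of 5.0e-15 at most), and p-values with adjusted p-values per table, which were read only for the members' counts in sensitivity checks.

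The 10629 genes in all tables were joined, and 258 were left out by filterByExpr. Libraries held 2858186 to 5399615 counts, with TMM factors of 0.630 to 1.29, and counting error put a member share within 0.0325 percentage points of its value at most (95% Wilson interval, for counting error only). One quasi-likelihood model of edgeR 4.0.16 (R 4.3.3) was fitted to all 29 libraries with 1 coefficient per group. The 5 stages were tested against M0 and 5 pairs of stages against each other, with Benjamini-Hochberg adjustment over 10371 genes at 0.05. Standard errors are the absolute log2 fold change over the root of F. Levels are CPM with TMM factors. Ratios of paralog counts were tested on the log2 scale by exact permutation.

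The members and lists were chosen with earlier results of these data known. Named members are up to 3 largest rises and falls per comparison with M0, up to 2 per comparison between stages, those called at the most stages, paralogs, and the 3 with the highest (RPS12, RPL37, RPS3A) and lowest CPM. Other members are named as chosen after their values were seen. Some genes that enter the counts are not reported here by name. Other lists give up to 2 genes each with the smallest p, and EEF2 and MYC were added after seeing values. Alternatives were RLE size factors, library totals, TMM without the members, other filters, a block for the replicate number, fits of just the 2 groups in a comparison, limma-voom (limma 3.58.1), DESeq2 1.42.0 and leaving out each replicate. The steps were tested on simulated data. Gene numbers of 79 of the 80 members matched RefSeq with the same symbol. No sequence is given, since none was used here. Figures were drawn in Python 3.11.15 (pandas 2.3.3, matplotlib 3.10.9).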

Additional observations from a re-analysis of the deposited data

Results flagged for a closer look

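Within groups, 126 sets of values were looked at for 1 library far from the others, and 4 such libraries were found. Chance gives about 1 in 20 sets, so 4 of 126 is no more than chance gives. RPS4X had 2288 CPM in M0 replicate 4, against 1871 to 1946 CPM in the other M0 libraries. RPL38 had 1902 CPM in M2 replicate 1, against 1273 to 1436 CPM in the other M2 libraries. RPS4Y1 had 34.4 CPM in M4 replicate 1, which is also the library with the lowest share of counts in the members, against 57.3 to 60.7 CPM in the other M4 libraries. RPL7 had 1039 CPM in M4.1 replicate 3, against 1249.9 to 1289.8 CPM in the other M4.1 libraries.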

How the results depend on the processing

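Library totals in place of TMM changed the most: risen and fallen members were then 3 and 22 in M1, 3 and 15 in M2, 1 and 21 in M3, 1 and 44 in M4, 2 and 16 in M4.1, 3 and 0 in M4.1 against M4, and 6 fell in M4 against M2. From M1 to M4.1, 30.6%, 25.2%, 30.3%, 45.6% and 21.2% of all genes then fell, beside the members' 27.5%, 18.8%, 26.2%, 55% and 20%. Of the members risen with TMM, 19 of 23 in M4 and 4 of 15 in M3 turned below 0. Among the members named by the rule, the log2 fold change reversed in M4 for RPL26L1 (-0.42), RPL6 (-0.11), RPS27 (-0.53), RPL7L1 (-0.16), RPL7 (-0.47), RPL36A (-0.42) and RPS12 (-0.033), and in M3 for RPL6 (-0.010), since this scaling moved the median of all genes. RPL22L1 stayed called at all 5 stages under every alternative run (0.92 to 1.71).

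Fallen members in M4 numbered 2 with RLE size factors, the stricter filter, only the 2 groups compared, limma-voom and DESeq2, and the cause was not tested. The stricter filter (10 counts in 10 libraries) gave 8 risen in M3 and 11 fallen in M4.1. With only the 2 groups compared 7 rose and 1 fell in M1 and 10 fell in M2. DESeq2 gave 11 fallen in M4.1, 6 fallen in M4.1 against M4 and 3 risen in M4 against M2. In M4 against M2 RLE size factors and limma-voom gave 1 risen, and with RLE 2.47% of all genes rose. Shares over all genes were not counted for DESeq2, limma-voom, the stricter filter, fits of 2 groups or fits without 1 library. Whether these alternatives call more or fewer genes in general was therefore not tested. Without M1 replicates 3 and 4, left out for their high member level, 5 rose and 14 fell in M1. Without the gene with the most counts the share was 12.4% in M0, 11% in M1, 10.7% in M2, 10.2% in M3, 9.20% in M4 and 10.2% in M4.1.

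Leaving out each replicate gave 7 to 13 risen and 1 to 5 fallen in M1, 4 to 8 risen in M2, 5 to 13 risen in M3, 12 to 26 risen and 1 to 2 fallen in M4, 3 to 10 risen and 4 to 10 fallen in M4.1, 0 to 2 fallen in M4.1 against M4 and 0 to 1 risen in M4 against M2. No label says whether the replicate numbers pair the samples. Deviations of same-numbered samples correlated from -0.36 to 0.41 and over 0.1 in 12 of 48 pairs. Deviations from the means of 4 or 5 libraries are too uncertain to decide this. With the replicate block 0 members fell in M4.1 against M4.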

Other observations

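RPL22 aside, 17 further rows are described as ribosomal proteins but have no symbol, and they hold 2.02% as many counts as the 80 members. Of the 16 of them tested, 3 were called at a stage or more. A row described as S15a (ENSBTAG00000037600) rose in M1 by 0.33 on the log2 scale, one described as S25 (ENSBTAG00000018987) fell in M2 (-0.64) and M4.1 (-0.61), and an L11-like row rose in M3 and M4. In 5 rows described as L39 the counts were identical in every library, from 2 to 25 counts, so these rows are not separate measurements. The L11-like row (ENSBTAG00000052953) rose by 0.39 in M3 and 0.40 in M4 on the log2 scale, close to the 0.38 of RPL11 at both stages, and reads shared between them cannot be assigned from the counts.

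In the authors' deposited tables, which fit each stage with M0 alone, the members counted as risen and fallen at an adjusted p under 0.05 were 7 and 1 in M1, 13 and 14 in M2, 10 and 1 in M3, 24 and 2 in M4, and 9 and 12 in M4.1. The share of all listed genes called in these deposited tables was 40.9%, 42.4%, 34.4%, 40.3% and 41.2%.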
